A study of Rattus norvegicus with 18 samples.

Results

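The microtubule genes described here encode kinesins, dyneins and tubulins. Genes were included by their symbol in the array annotation, after it had been updated through gene IDs to the RefSeq symbol. The symbol had to begin with Kif, Dync, Dynl, Dnah, Dnai, Dnal, Tuba, Tubb or Tubg and, in the numbered families, go on with a digit. The gene also needed a probe set that names no other gene. This gave 60 of 13811 genes, each read from the probe set with the greatest average log2 signal, called the brightest below, 37 on array type A and 23 on type B. The alpha-tubulin 1 genes, Dynll1 and Dnal4 are read only by probe sets shared with other genes and were left out, among 11 such probe sets.

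Signals of transcripts were available for 9 populations of testis cells of rats aged 22 days, with 1 array of each of 2 types per population and 18 arrays in all. The 7 germ cell libraries were cells that bound laminin, cells that did not bind it, germ cells held on STO feeders (4 libraries, at 1, 5, 10 and 20 days), and germ cells held on MSC1 feeders (20 days). The feeders are mouse lines, STO of embryonic fibroblasts and MSC1 of Sertoli cells, and whether feeder RNA is present in those 5 libraries was not tested. The labels mark the laminin fractions as cultured without a day, and the remaining 2 libraries held interstitial cells and tubular somatic cells. The sources name no strain or genotype and do not say how many animals were pooled. With 1 library per population there is no replicate error and no p-value for a fold. Folds were taken between signals raised to a floor of 50, and a gene was called higher or lower at a fold of at least 3 with the brighter side at 250 or more. The spread of log2 folds between the array types, over 100 probe sets held by both, had an SD of 0.25 per type on average over pairs of populations, so that 2 SD is 1.40-fold. That SD covers the arrays and not animals, cultures or amplification.

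Kinesins and dyneins are motors that use ATP to walk along microtubules, most kinesins toward the growing end and dyneins toward the other. Mitotic kinesins build the spindle and the midzone that divides the cell, cytoplasmic dynein 1 carries cargo and positions nuclei and spindles, kinesin-2 and dynein 2 move material up and down the cilium or growing sperm tail, and axonemal dyneins bend it. In the testis dividing spermatogonia need the spindle motors, and the flagellar genes begin to be transcribed in spermatocytes, well before a tail is visible.

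The germ cell and somatic labels were checked first on markers. Summed over 7 general germ cell genes the signal was 15253 to 33600.2 in the germ cell libraries and 893 and 927 in the interstitial and tubular fractions. Summed over 12 Sertoli genes it was 17814 in the tubular fraction, 11202 in the interstitial fraction and 1841 to 2912 in germ cells. The 9 steroidogenic genes summed to 9393 in the interstitial and 1626 in the tubular fraction. The ratio of 3' to 5' signal of Gapdh, a measure of RNA shortening, was 14.7 to 29.7 in the 5 feeder libraries and 5.63 to 11.2 in the others on type A. On type B it overlapped, at 15.0 to 27.1 and 5.33 to 16.7, and that of beta-actin on type A overlapped too, at 25.8 to 94.3 and 8.91 to 67.3.

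Of the 60 genes, 57 were above the floor somewhere and 48 reached 250 in at least 1 library. Kif12, Kif1b and Dynlt5 stayed below the floor in every library by the probe sets used. The library of highest signal was non-binding cells for 12 of the 48 genes, against 14.9% of all 8501 genes that reached 250, and STO day 20 for 8, against 10.8%. Binding cells were highest for 2 (against 13.2%), STO day 1 for 5 (5.8%), day 5 for 4 (6.66%), day 10 for 4 (6%), MSC1 for 3 (10.4%), the interstitial fraction for 3 (16.9%) and the tubular fraction for 7 (15.5%). Of the 60 genes, 30 were called in at least 1 of 8 comparisons. The matching share over all genes was not counted, so this number describes nothing particular to the 60. Several comparisons share a library, as non-binding cells enter both the laminin and the somatic comparison, so their counts are not independent.

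**Figure D1:**
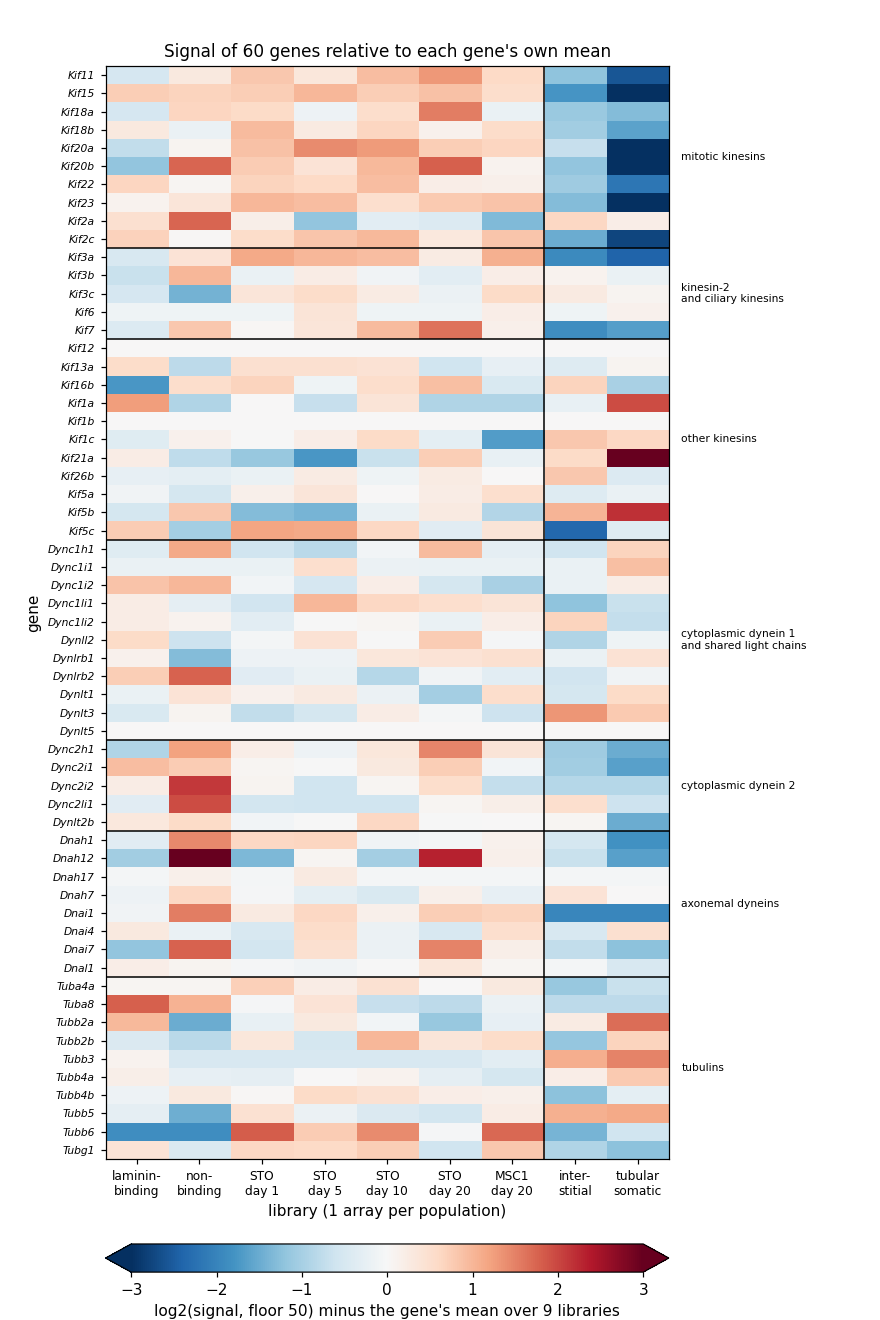
Each row is 1 of the 60 genes, grouped by role, and each column 1 library; colour is the log2 signal (floor 50) minus the gene's own mean over the 9 libraries, with the scale ending at -3 and 3. The mitotic kinesins other than Kif2a are low in both somatic columns, and Dnah12 and Dnai7 are high in non-binding cells and on STO day 20.

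Of the 10 mitotic kinesins 6 were higher in germ cells than in somatic cells. Without overlap between the 7 germ cell and the 2 somatic libraries, and with group means at least 3-fold apart, 11 of 57 measured genes were higher and 1 lower, against 5.22% higher and 5.78% lower of 12519 genes measured. The mitotic kinesins among the higher genes were Kif11, Kif15, Kif20b, Kif22, Kif23 and Kif2c, and no mitotic kinesin was lower. Averaging all probe sets of each gene, Kif23, Kif2c and Kif7 were not called. Leaving out the interstitial fraction gave 4 lower genes, adding Kif1a, Kif21a and Tubb2a, and leaving out STO day 20 gave 2, adding Kif21a. The median log2 difference of the 10 genes was 2.57, beside 0.09 over all genes. Fewer cells of a type and less RNA per cell cannot be told apart in such libraries.

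Kif15, which works with Kif11 to hold spindle poles apart, read 2089 in binding and 2009.6 in non-binding cells, 2107, 2498, 2089 and 2306 on STO days 1, 5, 10 and 20, 1811 on MSC1, and 372 and 112 in the interstitial and tubular fractions. It was level across the germ cells, within 1811 to 2498, and its germ cell mean was 10.4-fold above the somatic mean. Kif23, a subunit of centralspindlin at the midzone, read 3046 and 3635 in binding and non-binding cells, 5639, 5323, 3977 and 4823 on the 4 STO days, 5114 on MSC1, and 1146 and 298 in the somatic fractions. The groups did not overlap and the means differed 7.55-fold.

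Kif11, the motor that pushes spindle poles apart, read 584 and 1015 in binding and non-binding cells, 1436, 1045, 1557 and 2029.7 on the STO days, 1238 on MSC1, and 355 and 139.9 in the somatic fractions, a 5.36-fold difference of means. Kif2c, which takes microtubules apart at centromeres, read 661, 420.0, 599.7, 729, 801, 510.3 and 725 in the same order and 146 and 60.7 in the somatic fractions. Kif22, a motor that binds chromosome arms, read 974, 644, 987, 941, 1186, 717 and 692 and then 295 and 139. By the brightest probe sets every germ cell library lay above both somatic libraries for these 3 genes. The means differed 6.61-fold for Kif2c and 4.25-fold for Kif22. By the second probe set of Kif11 the groups overlapped, at 79.4 on MSC1 and 81.7 in the interstitial fraction, and it was not called here.

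Kif20b, which acts in cytokinesis, varied more within the germ cells. It read 570.3 in binding and 4335 in non-binding cells, 2178, 1721, 2526 and 4471 on STO days 1, 5, 10 and 20, 1388 on MSC1, and 568 and 116 in the somatic fractions. Binding cells lay at the level of the interstitial fraction, and the highest 2 libraries were STO day 20 and non-binding cells. Once the 75th percentiles of the arrays were made equal, the germ cell and somatic groups of Kif20b overlapped.

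The remaining mitotic kinesins were not called in this comparison. Kif20a, another midzone motor, read 583 in binding cells and 607 in the interstitial fraction, so the groups overlapped, while it reached 2609 on STO day 5 and 79.4 in the tubular fraction. Kif18a, which dampens chromosome movement at microtubule ends, read 452 in binding cells, 556 on MSC1, 1866 on STO day 20 and 297 and 259 in the somatic fractions, with means 2.95-fold apart. Kif18b stayed between 133 and 293 in germ cells and read 74.2 and 2.1 in the somatic fractions. Kif2a, a depolymerase that also acts outside mitosis, had no such pattern, with 540.1 to 4566 in germ cells and 2076 and 1555 in the somatic fractions.

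**Figure D2:**
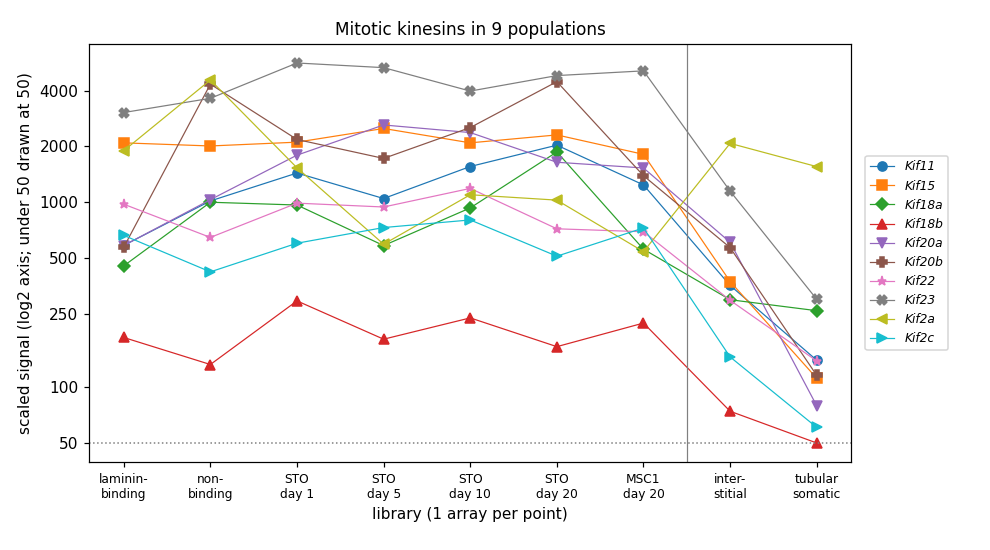
Scaled signal of the 10 mitotic kinesins (log2 axis, values under 50 drawn at 50) in 9 libraries, 1 array per point; lines only join the points of a gene and the vertical line separates germ cells from somatic fractions. Kif15 is level in germ cells, Kif20b is highest in non-binding cells and on STO day 20, and most of the genes are lowest in the tubular fraction.

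Calls in the list of other spindle genes were in the same direction. Of 34 measured genes of the spindle and chromosome segregation list, 18 were higher in all germ cell libraries and none lower, with the checkpoint kinase gene Ttk at 13.4-fold, Tacc3 at least 12.1-fold, the separase gene Espl1 at least 11.8-fold, Spc25 of the kinetochore at 10.8-fold and Mki67 at 8.36-fold. Its summed signal was 35368 to 59703 in germ cells, 16533 in the interstitial and 8852 in the tubular fraction. Among 14 measured kinesin light chain, associated and tubulin genes outside the inclusion rule 2 were higher, Kifap3, the non-motor subunit of kinesin-2, at 3.74-fold and Tubgcp2 of the gamma-tubulin complex at 3.41-fold. Of 18 dynactin and adaptor genes Hook1 was at least 6.34-fold and Spdl1 4.64-fold higher. Of 24 microtubule-associated genes Stmn1 and Spast were higher and Map1b and Tacc1 lower, and of 18 tubulin folding and modification genes Agtpbp1, Svbp and Ttll5 were higher.

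Between the somatic fractions 4 mitotic kinesins differed as well. In the tubular fraction 3 of 54 measured genes had a higher and 5 a lower signal, relative to the interstitial fraction, against 4.11% higher and 4.99% lower of 11044 genes. The lower ones were Kif20a (7.64-fold), Kif20b (4.90-fold), Kif23 (3.84-fold), Kif15 (3.33-fold) and Kif16b (3.12-fold), 4 of them mitotic kinesins. The Kif15 call was lost with quantile normalization, and the Kif16b and Kif23 calls when all probe sets of a gene were averaged. The higher genes were Kif21a, Kif1a and Tubb2b. All 10 mitotic kinesins lay on the lower side, with a median log2 fold of -1.30 beside 0.02 over all genes. Of 33 measured spindle genes 10 were lower there, led by Ttk at 5.28-fold and Pttg1 at least 5.03-fold. Marker genes of other cells differed between these fractions too, with 3 of 4 measured genes of pachytene and later cells lower in the tubular fraction (summed signal 752 against 2415), 7 of 12 fibroblast and matrix genes (11043 against 34363), 4 of 9 macrophage genes (920 against 3506) and 4 of 7 steroidogenic genes lower, and 4 of 10 Sertoli genes and 2 of 7 myoid genes higher. Their part in the result was not tested.

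Promoters from 250 bases before to 50 after the start site were found in RefSeq's GRCr8 table for 53 of the 60 genes. The first start site listed for a gene was used, and it can lie inside the gene. They are shown for the mitotic kinesins because 6 of these 10 genes were called together in germ cells against somatic fractions. The cell cycle homology region TTTGAA, an element of many promoters of late cell cycle genes, was searched on both strands and was present in 4 of 10 mitotic kinesin promoters (Kif15, Kif20b, Kif22 and Kif23), in 9 of all 53 and in 18.1% of 27457 promoters. The CCAAT box (CCAAT, both strands) was in 5 of the 10, those of Kif11, Kif20a, Kif20b, Kif22 and Kif23, and in 37.7% of all promoters. The cAMP response element TGACGTCA was in those of Kif15 and Kif18a and in 1.91% of all. The promoters of Kif20b (chr1:241840766-241841065, plus strand) and Kif23 (chr8:71320535-71320834, minus strand) follow, 5′ to 3′ on the strand of the gene, with TTTGAA in capitals.
Kif20b: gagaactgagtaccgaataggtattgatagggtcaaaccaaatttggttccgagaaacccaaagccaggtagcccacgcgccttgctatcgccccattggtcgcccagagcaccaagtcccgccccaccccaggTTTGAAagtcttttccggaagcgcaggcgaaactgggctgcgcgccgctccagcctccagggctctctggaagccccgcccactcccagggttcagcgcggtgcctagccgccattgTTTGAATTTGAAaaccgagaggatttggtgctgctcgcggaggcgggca
Kif23: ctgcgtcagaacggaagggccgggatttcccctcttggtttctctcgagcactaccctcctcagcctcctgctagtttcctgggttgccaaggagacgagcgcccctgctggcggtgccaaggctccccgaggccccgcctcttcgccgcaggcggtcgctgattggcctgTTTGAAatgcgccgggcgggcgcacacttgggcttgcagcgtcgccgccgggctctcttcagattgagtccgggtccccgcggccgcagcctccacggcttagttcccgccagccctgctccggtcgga
Kif20b held the letters 3 times, at -116, 2 and 8 from the start site, and Kif23 once, at -79. The start sites used lie inside the gene spans, chr1:241840898-241896451 for Kif20b and chr8:71293439-71321911 for Kif23. The whole Kif23 window is inside its span. Both promoters printed are among the 4 with a match, and the motifs were chosen after matches had been seen. A match is a description of the letters and not a binding site.

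Several axonemal and dynein 2 genes were higher in non-binding cells than in binding cells. In binding cells 10 of 54 measured genes were lower and 2 higher than in non-binding cells, against 6.52% lower and 5.94% higher of 11283 genes. Of 8 axonemal dynein genes 4 were lower, namely Dnah12, Dnai7, Dnah1 and Dnai1, and of 5 dynein 2 genes 3 were lower, namely Dync2li1, Dync2h1 and Dync2i2. Dnal1, Dnai4 and Dync2i1 had the larger value in binding cells, without a call. The other lower genes were Kif20b at 7.60-fold, Kif16b at 4.85-fold and Kif3b at 3.20-fold. The Kif3b call was lost with quantile normalization and the Kif16b call when its 5 probe sets were averaged. The median log2 fold was -1.21 for axonemal and -1.88 for dynein 2 genes, beside 0.22 over all genes and 0.08 with quantile normalization. The SD between array types for this pair of libraries was 0.21.

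Dnah12, a heavy chain of the inner dynein arms, read 75.3 in binding and 1425 in non-binding cells, 60.5, 161, 75.8 and 766 on STO days 1, 5, 10 and 20, 173 on MSC1, and 96.9 and 32.6 in the interstitial and tubular fractions. It was high in 2 libraries, non-binding cells and STO day 20, and was 18.9-fold lower in binding than in non-binding cells. Dnai7, which takes part in axonemal dynein assembly, read 60.7 and 473, then 94.3, 193, 122 and 391 on the STO days, 156 on MSC1, and 82.7 and 58.7. The same 2 libraries were highest, and the fold between the laminin fractions was 7.79.

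Dnai1, an intermediate chain of the outer arms, read 179 and 561 in binding and non-binding cells, 231, 298, 214 and 324 on the STO days, 309 on MSC1, and 33.2 and 20.8 in the somatic fractions. Both somatic values lay under the floor, and Dnai1 was the 1 axonemal gene called in germ cells against somatic fractions, with means at least 5.67-fold apart. With a floor of 100 that call was lost. Dnah1, an inner arm heavy chain, read 163 and 555, then 314, 322, 192 and 197, 225 on MSC1, and 142 and 58.3. It was 3.41-fold lower in binding than in non-binding cells, and its germ cell libraries also lay above both somatic ones, without a call.

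The other axonemal genes were not called. Dnah7 lay between 239 and 506 in all 9 libraries, and Dnal1, a light chain of the outer arms, between 499 and 885. Dnai4 did not exceed 103 and Dnah17 did not exceed 62.3, so that neither could reach a call.

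Dynein 2 returns cargo from the tip of the cilium. Its heavy chain gene Dync2h1 read 243 in binding and 1046 in non-binding cells, 522, 405, 572 and 1244 on the STO days, 592 on MSC1, and 215 and 160.4 in the somatic fractions. Dync2i2, an intermediate chain, read 504 and 1856, then 451, 284, 445 and 619, 262 on MSC1, and 237 and 239. Dync2li1, the light intermediate chain, read 178 and 878, then 155, 149, 149 and 234, 256 on MSC1, and 319 and 146. The folds between the laminin fractions were 4.31 for Dync2h1, 3.69 for Dync2i2 and 4.92 for Dync2li1, and the last was not higher in germ cells as a whole.

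Dync2i1, the other intermediate chain, did not follow them. It read 665 and 594 in binding and non-binding cells, 364, 347, 429.6 and 584 on the STO days, 329.9 on MSC1 and 169.9 and 113 in the somatic fractions, so that it was high in both laminin fractions and its germ cell and somatic libraries did not overlap. Dync2h1 too was higher in all germ cell libraries, 3.13-fold in the means, and Dync2i1 3.29-fold. Without non-binding cells, STO day 20 or the tubular fraction Dync2h1 fell short of 3-fold, and without the tubular fraction so did Dync2i1 and Kif22. Dynlt2b, a light chain of dynein 2, lay between 489.5 and 804 in germ cells and read 542 and 184 in the somatic fractions.

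**Figure D3:**
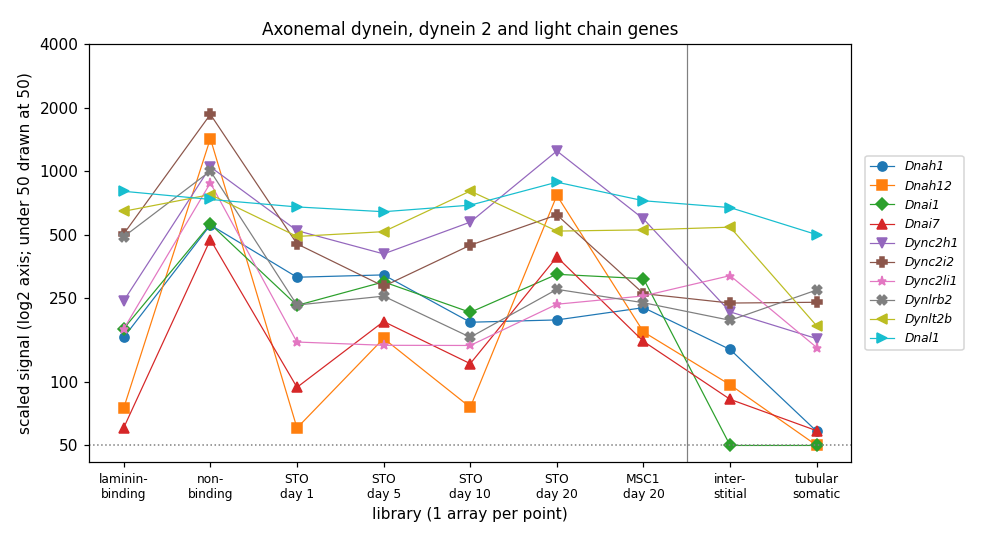
Scaled signal (log2 axis, values under 50 drawn at 50) of 10 axonemal dynein, dynein 2 and light chain genes in 9 libraries, 1 array per point; lines only join the points of a gene. Dnah12, Dnai7 and Dync2h1 peak in non-binding cells and on STO day 20, while Dnal1 stays between 499 and 885.

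Against both somatic fractions, non-binding cells had 14 of 57 measured genes higher and 2 lower, against 6.57% higher and 5.98% lower of 11561 genes. The higher genes were Dnah12 (14.7-fold), Dnai1 (at least 11.2-fold), Dync2i2 (7.78-fold), Kif20b (7.64-fold), Dnai7 (5.72-fold), Kif7 (5.46-fold), Kif15 (5.40-fold), Kif3a (5.00-fold), Dync2h1 (4.87-fold), Dnah1 (3.90-fold), Dynlrb2 (3.66-fold), Dync2i1 (3.50-fold), Kif18a (3.36-fold) and Kif23 (3.17-fold). The fold is that against the nearer fraction. The Kif23 call was lost with quantile normalization, and the Kif23 and Kif7 calls when all probe sets of a gene were averaged. Binding cells had 5 of 56 higher and none lower, against 5.6% and 4.23% of 11760 genes. These were Tuba8 (at least 5.90-fold), Kif15 (5.61-fold), Kif2c (4.53-fold), Dync2i1 (3.91-fold) and Kif22 (3.30-fold), none of them axonemal. The Tuba8 call was lost with a floor of 100 and the Kif2c call when its probe sets were averaged. Against the tubular fraction alone 12 were higher in binding cells, Kif11, Kif20a, Kif20b and Kif23 among those added.

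**Figure D4:**
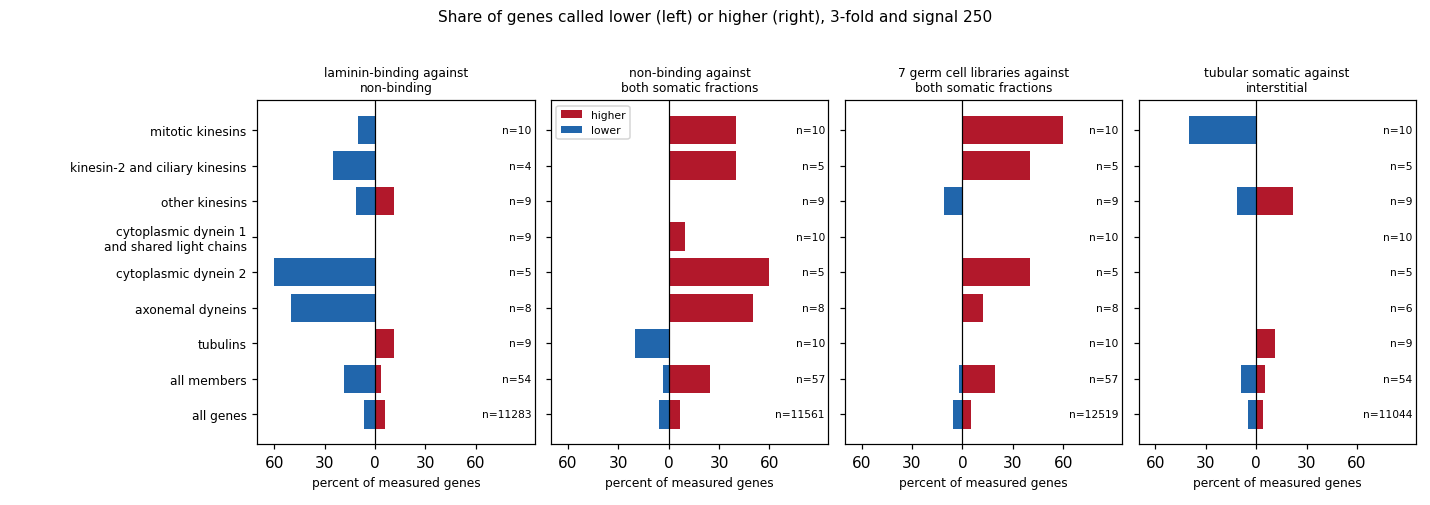
Bars give the percent of measured genes called higher (right) or lower (left) at 3-fold with the brighter side at 250, for each role, for all 60 genes and for all genes, in 4 comparisons; n is the number measured. Dynein 2 and axonemal dyneins have the longest bars to the left in binding against non-binding cells, and mitotic kinesins the longest to the right in germ cells against somatic fractions.

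Calls among other genes of the axoneme were in the same direction between the laminin fractions. Of 38 measured genes of the axoneme, dynein assembly and intraflagellar transport list 18 were lower in binding cells and none was higher, with a median log2 fold of -1.83. Spag16 of the central apparatus was at least 27.1-fold lower, the assembly factor gene Dnaaf1 19.6-fold, Drc1 of the dynein regulatory complex 17.9-fold, the tektin gene Tekt2 at least 16.7-fold and the tail fibre gene Odf2 16.1-fold. Dnali1, an axonemal light chain gene outside the inclusion rule, was 23.7-fold lower. In non-binding cells 20 of 36 measured genes of the list were higher than in both somatic fractions. Markers of later germ cells moved with these genes, since the summed signal of 12 genes of pachytene and later cells was 1226 in binding and 19151 in non-binding cells, with 7 of them below the floor in each, and that of 6 meiotic prophase genes 2757 and 13818. Their part in the result was not tested.

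On STO day 20 the meiotic prophase sum was 16781, against 3680 on day 1, while the pachytene sum was 2756 and 1491. The 4 measured pachytene genes went different ways, with a median log2 fold of -0.54. On days 20 and 1 Crem, the 1 gene called, read 1506 and 145, and Hspa2 read 1084 and 919. Ldhc read 24.7 and 149 and Ccna1 26 and 124.5. Spag16 read 1354 in non-binding cells and 8.0 on STO day 20, and Tekt2 read 833 and 56.4. Spag16 and Tekt2 thus lacked the high day 20 signal of Dnah12 and Dnai7, as did Drc1 (940.5 and 13.6). Other genes of the list were high in both libraries, such as Ift88 (3350 and 2894) and Ift172 (699.5 and 826). The list was therefore not uniform on day 20.

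The X-box core, written here as GTTGCCA or GTTGCTA on either strand, is a piece of the element bound by RFX factors, which act on ciliary genes. It was in 3 of 7 axonemal dynein promoters (Dnah12, Dnah7 and Dnal1), 2 of 4 dynein 2 promoters (Dync2i1 and Dync2li1), 3 of 4 kinesin-2 and ciliary kinesin promoters (Kif3a, Kif3b and Kif6), 2 of 8 of dynein 1 and shared light chains (Dync1i2 and Dynlrb2), 3 of 10 mitotic kinesins (Kif11, Kif18a and Kif23), 1 of 10 other kinesins (Kif16b) and 1 of 10 tubulins (Tubg1). Over the 53 genes this was 15, or 28.3%, and over all 27457 promoters 7.76%. Dnal1 and Dnah7 had these letters and nearly level signals, and Dnah1, Dnai1, Dnai7 and Dync2i2 had none in the window. The promoters of Dnah12 (chr16:1944502-1944801, plus strand), Dync2li1 (chr6:15778117-15778416, minus strand) and Dynlrb2 (chr19:61428830-61429129, plus strand), genes with their highest signal in non-binding cells, follow in GRCr8, with the core in capitals.
Dnah12: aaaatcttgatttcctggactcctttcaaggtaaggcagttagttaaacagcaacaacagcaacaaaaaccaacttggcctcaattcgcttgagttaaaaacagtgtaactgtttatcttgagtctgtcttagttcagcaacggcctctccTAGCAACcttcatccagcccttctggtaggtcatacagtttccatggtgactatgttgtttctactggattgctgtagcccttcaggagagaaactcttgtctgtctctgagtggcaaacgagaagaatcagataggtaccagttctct
Dync2li1: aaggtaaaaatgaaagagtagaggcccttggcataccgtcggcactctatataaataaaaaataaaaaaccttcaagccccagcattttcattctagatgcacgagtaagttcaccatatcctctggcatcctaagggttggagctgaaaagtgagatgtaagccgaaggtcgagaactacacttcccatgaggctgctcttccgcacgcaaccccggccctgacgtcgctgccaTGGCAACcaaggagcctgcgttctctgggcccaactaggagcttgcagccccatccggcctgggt
Dynlrb2: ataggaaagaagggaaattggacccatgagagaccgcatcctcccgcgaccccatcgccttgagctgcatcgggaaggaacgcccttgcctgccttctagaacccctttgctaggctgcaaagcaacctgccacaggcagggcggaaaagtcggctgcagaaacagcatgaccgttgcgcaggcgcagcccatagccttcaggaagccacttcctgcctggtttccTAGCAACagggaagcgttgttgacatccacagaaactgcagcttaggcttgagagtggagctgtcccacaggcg
The matches start at -99 in Dnah12, -15 in Dync2li1 and -24 in Dynlrb2. The Dnah12 and Dynlrb2 windows lie inside the gene spans, chr16:1932776-2099391 and chr19:61428782-61440331. The motifs were chosen after matches in these promoters had been seen.

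Kinesin-2 genes, whose motors carry cargo outward along the cilium, were not uniform. Kif3a read 267 and 492 in binding and non-binding cells, 818, 745, 699.9 and 439 on the STO days, 782 on MSC1, and 98.5 and 70.8 in the somatic fractions. All 7 germ cell libraries lay above both somatic ones, with means 6.81-fold apart. The second probe set of Kif3a, on type B, had the laminin fractions in the other order, at 461 in binding and 303 in non-binding cells. It read 204 to 378.5 on feeders and 144 and 85.3 in the somatic fractions, without overlap but without a call. The partner gene Kif3b read 250.2 and 799.9, then 347, 464, 372 and 320.2, 457 on MSC1, and 427 and 346, so that germ cells and somatic cells overlapped.

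Kif3c, the alternative partner, lay between 67.1 and 267 and passed no call, and Kif6 did not exceed 70.6. Kif7, a kinesin of the ciliary tip that acts in Hedgehog signalling, read 374 and 864, then 505, 635, 946 and 1524 on the STO days, 545 on MSC1, and 135 and 158. Its germ cell mean was 4.78-fold above the somatic mean. The second probe set of Kif7 did not show this, with 166 to 864 in germ cells and 490 and 247 in the somatic fractions.

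Cytoplasmic dynein 1 and the shared light chains had few calls. Of the 11 genes Dynlrb2 was called, in non-binding cells against both somatic fractions, and no other gene of the group was called in any comparison. Dynlrb2, a roadblock light chain that is abundant in testis, read 488 and 1000 in binding and non-binding cells, 232, 255, 163 and 275 on the STO days, 237 on MSC1, and 196 and 273. The sister gene Dynlrb1 ran the other way, with 617 and 229.8 in binding and non-binding cells, a 2.69-fold difference under the threshold, and 495 to 786 in the other libraries.

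The heavy chain gene Dync1h1 read 672 and 1877 in binding and non-binding cells, 564, 491, 819 and 1655 on the STO days, 710.3 on MSC1, and 566 and 1359 in the somatic fractions. It was highest in the same 2 germ cell libraries as Dnah12, though 2.79-fold between the laminin fractions and 2.93-fold between STO days 20 and 1, both under the threshold. Dync1i2 lay between 660.3 and 2586, Dync1li1 between 85.0 and 388, Dync1li2 between 564 and 1465, Dynll2 between 1006 and 3204, Dynlt1 between 649.7 and 1948 and Dynlt3 between 251 and 1034. Dynlt3 was highest in the somatic fractions (1034 and 712), and Dync1i1 exceeded 100 in the tubular fraction alone (108).

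The kinesins of vesicle and organelle transport differed gene by gene. Kif5b, the widespread heavy chain of conventional kinesin, read 269 and 684 in binding and non-binding cells, 157, 148, 339.5 and 471 on the STO days, 212 on MSC1, and 784 and 1788 in the somatic fractions. It was the 1 gene of the 60 called lower in germ cells, with means 4.19-fold apart. Both somatic libraries of Tubb5, Dynlt3, Tubb3 and Kif1c also lay above all germ cell libraries, without a call. Scaled to the same 75th percentile, or without the tubular fraction, it was not called.

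Kif5c, the form best known from neurons, read 452 and 131, then 601, 583, 410.3 and 211, 347 on MSC1, and 51.7 and 207. It was 3.44-fold higher in binding than in non-binding cells, a call that was lost with the 75th percentile scaling and with the mean over its probe sets. Kif5a lay between 86.7 and 176. The sum of 8 neuronal marker genes was 1173 in binding and 526 in non-binding cells. Most of that gap was Rbfox3 (575.6 and 35.5), the 1 gene called of 6 measured, while Syt1 ran the other way (89.1 and 138). The part of these genes in the result was not tested.

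Kif21a, which slows microtubule growth at the cortex, read 1357 in the tubular fraction, 248 in the interstitial fraction and 21.7 to 278 in germ cells. Kif1a, a motor of synaptic vesicle precursors, read 362 in the tubular fraction, 79.8 in the interstitial fraction, 224 in binding cells and 7.3 to 122 in the other germ cells. Kif21a was 5.48-fold and Kif1a 4.54-fold higher in the tubular than in the interstitial fraction. The Kif1a call was lost with the mean over its probe sets, since its other probe sets stayed below the floor.

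Kif16b, an endosomal motor, was low in binding cells (123) and read 595 in non-binding cells, 658, 381, 598 and 779.7 on the STO days, 303 on MSC1, and 663 and 212. Kif1c lay between 41.1 and 279, Kif13a between 58.4 and 148 and Kif26b between 57.8 and 134, with no call.

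Tubulins did not move as a group. Of 10 measured genes none was called between the 7 germ cell libraries and both somatic fractions. Tubb4b, a widespread beta-tubulin that is also a main tubulin of axonemes, read 3955 and 5364 in binding and non-binding cells, 4478, 6519, 6016 and 5066 on the STO days, 4864 on MSC1, and 1879.9 and 3624. Its germ cell libraries lay above both somatic ones but under 3-fold. Tubg1, which nucleates microtubules, read 402, 224, 466, 462, 508, 202 and 530.0 in germ cells and 162 and 128 in the somatic fractions, again without overlap and without a call.

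Tubb2a read 2886 in binding and 522 in non-binding cells, 1249.7, 1790.1, 1384 and 669 on the STO days, 1238 on MSC1, and 1747 and 4653 in the interstitial and tubular fractions. It was 5.53-fold higher in binding than in non-binding cells, and the 2 germ cell libraries in which it was lowest, non-binding cells and STO day 20, were the highest for Dnah12. Tubb5, the general beta-tubulin, read 746 and 328, then 1243, 794, 666 and 616, 1052 on MSC1, and 1873 and 1989.5. Both genes were lower in non-binding cells than in either somatic fraction, Tubb5 5.72-fold and Tubb2a 3.35-fold. Scaled to the same 75th percentile the Tubb2a call was lost. Map1b, a microtubule-associated gene that was called in the same direction between the laminin fractions, read 452 and 122 there and 2566 in the tubular fraction.

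The second probe set of Tubb5 gave a wider gap between germ cells, at 82.7 to 259, and somatic fractions, at 1205 and 1165, and was called lower there. Tuba8, a rarer alpha-tubulin, read 295 and 177, then 83.0, 113, 53.1 and 40.7 on the STO days, 75.1 on MSC1, and 18.2 and 16.1. It was highest in the 2 laminin fractions and below the floor in both somatic ones. Tuba4a lay between 45.7 and 182 and Tubb2b between 76.9 and 342. Tubb2b was 3.57-fold higher in the tubular (274) than in the interstitial fraction, a call lost with a floor of 100. Tubb3, the beta-tubulin used as a neuronal marker, did not exceed 75.1 in germ cells and read 147 and 195 in the somatic fractions.

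For Tubb6 and Tubb4a the probe sets of a gene disagreed. The brighter probe set of Tubb6, on type B, read 10.1 and 15.1 in binding and non-binding cells, 641, 308, 488 and 177 on the STO days, 601 on MSC1, and 69.2 and 119.9. The other, on type A, read 196 and 122, then 47.4, 74.1, 77.6 and 70.3, 83.0 on MSC1, and 598 and 394. By the first the feeder libraries were highest and by the second the somatic fractions. Tubb4a by its brightest probe set, whose name marks possible cross-hybridization, lay between 201 and 502, while another read 576 in binding and 55.9 in non-binding cells, a call at the threshold used here. The fibroblast and matrix markers, 12 genes, summed to 5196, 2536, 3741 and 7392 on the STO days and 7262 on MSC1. In the laminin fractions they summed to 1400 and 1760. From STO day 1 to day 5 this sum and the brighter Tubb6 probe set both fell, and from day 5 to day 10 both rose. From day 10 to day 20 the sum rose further while the probe set fell. Both were higher on MSC1 than in the laminin fractions. The part of these markers in the Tubb6 values was not tested.

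**Figure D5:**
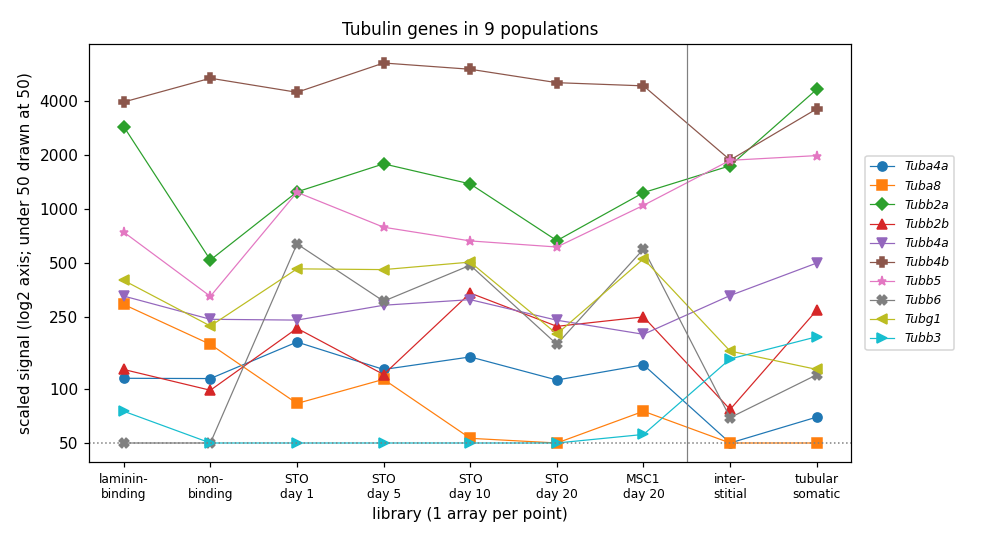
Scaled signal (log2 axis, values under 50 drawn at 50) of 10 tubulin genes by their brightest probe set in 9 libraries, 1 array per point; lines only join the points of a gene. Tubb2a and Tubb5 are lowest in non-binding cells, and Tubb6 is below the floor in both laminin fractions and highest on STO day 1.

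Over the STO series, day 20 had 5 of 53 measured genes higher and 1 lower than day 1, against 2.58% higher and 4.66% lower of 11142 genes. The higher genes were Dnah12 at 12.7-fold, Dnai7 at 4.15-fold, Kif21a at 3.64-fold, Kif7 at 3.02-fold and Kif5b at 3.01-fold, and Tubb6 was 3.62-fold lower by its brightest probe set. No mitotic kinesin was called among 10, with a median log2 fold of -0.18 beside -0.12 over all genes. Averaging all probe sets of each gene left Dnah12 and Dnai7 as the 2 higher genes. Each of these has 1 probe set, so averaging could not change its fold. The second probe set of Kif21a ran the other way, with 188 on day 1 and 80.4 on day 20, and the Kif21a call was also lost with a floor of 100 and the Kif7 call with quantile normalization. Markers differed between these libraries too, with all 6 meiotic prophase genes higher on day 20, 6 of 12 genes of undifferentiated spermatogonia lower (summed signal 5876 on day 1 and 3121 on day 20), and 4 of 10 measured fibroblast and matrix genes higher and 1 lower (5196 and 7392). Their part in the result was not tested. Axonemal list genes other than the dyneins were called for 3 of 34, with Ift88 3.18-fold and Ift20 3.06-fold higher and Ift27 3.34-fold lower. The adaptor gene Hook1 was 3.63-fold higher, and of 34 spindle genes Cdk1 and Aurkb were lower, at 3.35-fold and 3.14-fold.

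A linear trend on log2 culture day, fitted with limma on the 4 STO libraries, with Benjamini-Hochberg adjustment across 16066 probe sets, called 0 of the 49 genes tested and 0% of the probe sets. At an unadjusted p under 0.05 there were 6 of the 49 genes, 5 of them rising, and 1500 probe sets. The smallest adjusted p of limma among the genes was 0.471, for Dnah12, with a slope of 0.66 ± 0.24 (SE) log2 units per doubling of the day. The spread in this fit is the departure from a line and not that of repeated cultures. With the day itself as the predictor limma called Dnah12, Dync1h1, Kif5b and Kif7 as rising and none of the 49 as falling, against 3.66% rising and 5.21% falling of all probe sets. Without day 1 it called 6 genes as rising and 2 as falling, against 5.44% and 5.85%.

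On MSC1 feeders 1 of 54 measured genes was higher and 3 lower than on STO feeders on day 20, against 4.38% higher and 3.29% lower of 11473 genes. Dnah12 was 4.44-fold, Kif18a 3.35-fold and Kif20b 3.22-fold lower on MSC1, and Tubb6 was 3.39-fold higher by its brightest probe set. With quantile normalization the Kif18a and Kif20b calls were lost. Ift52 was lower on MSC1, as were Ift81, Ift20 and Ift88 at 4.84-fold, 4.35-fold and 3.16-fold, Ift27 was 4.02-fold higher, and the topoisomerase gene Top2a was 5.69-fold lower. The meiotic prophase sum was 4404 on MSC1 and 16781 on STO, and its part in the result was not tested. This comparison shares the STO day 20 library with that over the STO series.

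Cells on STO for 1 day differed from laminin-binding cells in 6 of 55 measured genes, 5 higher and 1 lower, against 2.15% higher and 1.99% lower of 11373 genes. Tubb6 was at least 12.8-fold higher by its brightest probe set, Kif16b 5.37-fold, Kif20b 3.82-fold, Kif20a 3.08-fold and Kif3a 3.06-fold, and Tuba8 was 3.56-fold lower. With the 75th percentile scaling the Kif20a and Kif3a calls were lost, with quantile normalization that of Kif3a, with averaged probe sets those of Tubb6, Kif16b and Kif3a, and with a floor of 100 that of Tuba8. The labels do not say whether binding cells were those put on feeders. The ratio of 3' to 5' signal on type A was 7.07 in binding cells and 20.7 on STO day 1 for Gapdh and 21.6 and 71.2 for beta-actin, and its part in the result was not tested.

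Of the 60 genes 23 had several probe sets, 95 in all, and no gene was called in opposite directions by different probe sets. In 14 cases a gene was called by another of its probe sets and not by the brightest, as for Kif11, whose second probe set was higher in both laminin fractions than in either somatic fraction, and for Kif3b, whose second probe set read 348 in non-binding cells and no more than 38.5 elsewhere. The same Kif11 probe set was 4.94-fold lower on MSC1 than on STO on day 20, and on MSC1 it lay below the interstitial fraction.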

How the data were processed

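Total RNA (50 ng) from 9 rat testis cell populations had been amplified in 2 rounds and put on 2 array types, per the labels. The deposited values are signal intensities on a linear scale, 1 per probe set, which the authors scaled to an average of 250 per array, per the labels. For software and background treatment the sources used here give nothing, and detection calls were not used. The number of arrays limits the precision.

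Probe sets were named from the platform annotation where they had 1 gene (20359 of the probe sets; 412 had several and 10485 none), with symbols updated through gene IDs to GRCr8. Signals were raised to 50 and taken to log2, and calls needed 3-fold and 250. Named genes were all 60, with values in every library for called genes and small groups. From the pathway lists up to 5 called genes per direction are named. The members and lists were chosen with earlier results of these data known. Marker lists of peritubular myoid (summed signal 665 to 7243), macrophage (592 to 3506), endothelial (227 to 684) and undifferentiated spermatogonial genes (1984 to 6774) were also read. Python 3.11.15, pandas 2.3.3, R 4.3.3 and limma 3.58.1 were used, and the call rule and the trend were tested on simulated data. Alternatives were other floors, thresholds, scalings and probe set rules.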

Additional observations from a re-analysis of the deposited data

How the results depend on the processing

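With a fold threshold of 2 the counts higher and lower were 5 and 16 for binding against non-binding cells, 11 and 3 for binding cells against both somatic fractions, 9 and 5 for STO day 20 against day 1, 3 and 10 for MSC1 against STO, 8 and 3 for STO day 1 against binding cells, 7 and 10 for the tubular against the interstitial fraction, and 3 lower for germ cells against somatic fractions. Shares over all genes were not counted under the alternative call settings. These counts therefore show how the calls depend on the setting and have no background beside them. Scaled to the same 75th percentile, counts that moved by over 1.5 times were 1 higher in binding than non-binding cells, 1 lower in non-binding than somatic cells, 0 higher and 5 lower on MSC1, 3 higher on STO day 1 than in binding cells and 0 lower in germ cells. With quantile normalization MSC1 had 2 higher and 1 lower. Over the mean of a gene's probe sets there were 2 lower in binding than somatic cells, 2 higher and 0 lower on STO day 20, 0 higher on MSC1, 2 higher on STO day 1 than in binding cells, 3 lower in the tubular fraction and 2 lower in germ cells. With type A first, 0 were lower on STO day 20, 0 higher on MSC1 and 2 lower in germ cells, and the log2 fold of Tubb6 reversed to 0.49 on STO day 20 and to -1.97 on STO day 1 against binding cells, since another probe set is read. A floor of 100 left 0 lower on STO day 1 than in binding cells, and a minimum of 100 gave 2 lower in germ cells. Against the interstitial fraction alone 2 were lower in binding cells, and against the tubular fraction alone 12 were higher and 2 lower in binding cells and 5 lower in non-binding cells. Leaving out 1 library gave 9 to 15 higher and 1 to 4 lower in germ cells, and leaving out 1 STO day gave 0 to 6 rising and 0 to 2 falling in limma's trend, with 4 rising when the day was not taken to log2. Where no construction of the setting shows it, the cause was not tested. Other counts stayed within 1.5 times. Of 771 alternative values for 69 called folds 676 moved by less than the array SD, 93 by more and 2 reversed. The fold threshold and the minimum of the brighter side do not enter a fold. The probe set rules cannot change the fold of a gene with 1 probe set. Part of the 676 was thus fixed in advance, and the count is no measure of robustness. Every fold rests on single libraries, and signals under the floor of 50 give bounds. No paired analysis was possible because each group has 1 library per array type.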
